A study of Mus musculus with 14 samples.

Results

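The transcripts of 10 interleukin receptor chains other than those of the IL-2 receptor were followed in Tregs with and without JunB: Il1rl1, Il1r2, Il18r1, Il7r, Il21r, Il6ra, Il6st, Il27ra, Il23r and Il10ra. They were found by gene ID in both count tables, which list 53801 and 55487 gene IDs, and all 10 passed the filter on low counts in every comparison. A total of 14 RNA-seq libraries of sorted mouse Tregs were used. PP Tregs, from Peyer's patches, came from untreated male Foxp3-YFP-cre mice, generally 8 to 12 weeks old, of which 2 were JunB F/+ (HET) and 2 JunB F/F (KO). The other 10 libraries came from Foxp3-EGFP-cre-ERT2 Rosa26-tdTomato mice aged 10 to 12 weeks, either JunB F/+ (iHET) or JunB F/F (iKO), all gavaged with 8 mg of tamoxifen in olive oil on days 0, 1 and 3 and analysed on day 7. They held CD25- PP Tregs (2 iHET and 2 iKO) and Tregs of the colon lamina propria, called colonic or coLP Tregs (3 iHET and 3 iKO), sorted in both organs as EGFP+ tdTomato+ cells.

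HET and iHET controls carried 1 floxed Junb allele and the same Cre as the knockouts, and iHET mice also received tamoxifen. Cre was driven from the Foxp3 locus in both lines, and the constitutive YFP allele is known to delete in some cells outside the Treg lineage. In the inducible line number 1 of each group was male, with Cre labelled as +, and the others female, labelled +/+. Its tdTomato reporter is expressed only after Cre has removed a STOP cassette. Only PP Tregs of that line were gated as CD25-, so that organ and CD25 gate cannot be told apart. The lines were sequenced apart, and tests were made only within a line. The labels give an animal for each library, and p-values measure the spread between so few animals.

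Interleukin receptors are assembled from a ligand-binding chain and a signalling partner that several receptors share. Chains of the IL-1 family recruit MyD88, whereas those that pair with the common gamma chain, gp130, IL-12Rb1 or IL-10Rb signal through JAK kinases and STAT factors. In the intestine, IL-33 acting on ST2 is known to expand Tregs, IL-10 receptor signals sustain their suppressive function, and IL-6, IL-21 and IL-23 are known for driving effector T cell programmes. Il1rl1 encodes ST2, the IL-33 receptor. Il1r2 encodes a decoy receptor that binds IL-1 without signalling, and Il18r1 the binding chain of the IL-18 receptor. Il7r and Il21r encode chains that pair with the common gamma chain. Il6st encodes gp130, which Il6ra (the IL-6 binding chain) and Il27ra (the IL-27 binding chain) engage. Il23r pairs with IL-12Rb1, and Il10ra with IL-10Rb.

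On GRCm38, with GENCODE M21 gene models, Il1r2 (ENSMUSG00000026073.13) lies on chromosome 1 from 40074079 to 40125231, Il1rl1 (ENSMUSG00000026069.15) from 40429570 to 40465415 and Il18r1 (ENSMUSG00000026070.15) from 40465552 to 40500854, all on the plus strand. Il1rl1 and Il18r1 are separated by 136 bases. Il6ra (ENSMUSG00000027947.11) lies on chromosome 3 from 89864059 to 89913196, Il23r (ENSMUSG00000049093.9) on chromosome 6 from 67422932 to 67491855, Il21r (ENSMUSG00000030745.9) on chromosome 7 from 125603429 to 125633570 and Il10ra (ENSMUSG00000032089.16) on chromosome 9 from 45253837 to 45269149. Il6st (ENSMUSG00000021756.12) lies on chromosome 13 from 112464070 to 112510086 and Il7r (ENSMUSG00000003882.5) on chromosome 15 from 9505788 to 9530176. Il27ra (ENSMUSG00000005465.9) lies on chromosome 8 from 84030294 to 84042589, 931.9 kb from Junb. Since knockouts are homozygous and controls heterozygous for the chromosome that carries the floxed Junb allele, sequence flanking that allele and the loss of Junb cannot be told apart for Il27ra. Counting ignored strand, and 242 exon bases of Il6ra are shared with the antisense gene Gm42809, so that reads of these genes cannot be separated. Counts per gene also join the membrane and soluble forms of ST2.

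RefSeq promoter windows (GRCm38.p6) were matched for 8 of the 10 genes, with 11 windows in all, and the 250 bases before each start were searched on both strands. The AP-1 motif TGANTCA, the site that JunB-containing dimers are known to bind, occurred in none of the 11, and in 6.75% of all 32851 windows of this length. The CRE motif TGACGTCA also occurred in none, and in 1.55% of all windows. The STAT-binding GAS motif TTCNNNGAA occurred in 1 window each of Il1r2, Il7r and Il18r1, the last with 2 copies, and in 7.02% of all windows. These are matches of letters, and a window without a match does not speak about binding elsewhere. The windows of 3 genes whose levels changed between genotypes or organs, and which overlap no GENCODE exon, are shown from 5′ to 3′ on the strand of the gene. They are Il6st (chr13:112463820-112464069, plus strand), Il1rl1 at its upstream start (chr1:40429320-40429569, plus strand) and Il23r (chr6:67491856-67492105, minus strand). Capitals mark matches to the motifs, of which these windows have none.
Il6st: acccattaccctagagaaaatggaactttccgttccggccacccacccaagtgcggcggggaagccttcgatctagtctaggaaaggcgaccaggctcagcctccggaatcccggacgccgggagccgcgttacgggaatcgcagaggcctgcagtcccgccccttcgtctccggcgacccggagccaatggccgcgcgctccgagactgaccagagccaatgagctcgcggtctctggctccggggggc
Il1rl1: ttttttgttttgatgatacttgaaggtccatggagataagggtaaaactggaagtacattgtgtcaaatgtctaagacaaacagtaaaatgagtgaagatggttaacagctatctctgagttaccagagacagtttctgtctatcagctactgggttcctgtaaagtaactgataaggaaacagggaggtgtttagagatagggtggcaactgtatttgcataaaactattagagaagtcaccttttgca
Il23r: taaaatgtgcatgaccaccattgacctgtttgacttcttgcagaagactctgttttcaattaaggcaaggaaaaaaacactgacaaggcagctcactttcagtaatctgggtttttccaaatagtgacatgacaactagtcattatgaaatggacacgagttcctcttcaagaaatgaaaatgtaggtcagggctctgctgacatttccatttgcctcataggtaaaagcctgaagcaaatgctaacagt

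Libraries held 26274861 to 35508709 counted reads. The targeted gene followed the labels, with Junb at 4741 and 5316 CPM in HET PP Tregs against 604.6 and 559.6 CPM without JunB, at 4169 to 5530 against 888 to 909 CPM in CD25- PP Tregs and at 6843 to 8444 against 989.7 to 1025 CPM in colonic Tregs (CPM, counts scaled to library size with TMM normalization over all libraries of a line). Of 8 markers of Treg identity, none was at 0 in any group, and Foxp3 was at 83.0 to 124 CPM in PP Tregs, at 59.5 to 85.4 CPM in CD25- PP Tregs and at 79.5 to 155 CPM in colonic Tregs. Sorted bulk samples were measured, so that fewer cells with a transcript and less transcript per cell cannot be told apart.

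Per length of exon, in RPKM (the CPM divided by exon length in kilobases), Il21r and Il27ra had the highest levels of the 10 genes in all 6 groups. In HET PP Tregs the mean level was 249 RPKM for Il21r and 196 RPKM for Il27ra, followed by Il1r2 at 99.7 and 120.2 RPKM in its libraries, Il7r at 59.9 RPKM, Il6st at 39.8 RPKM and Il10ra at 38.4 RPKM. Il1rl1 at 15.3 RPKM, Il6ra at 8.47 RPKM, Il18r1 at 5.16 RPKM and Il23r at 1.40 RPKM came last. Only Il6st and Il10ra overlapped as neighbours in this order. In KO PP Tregs Il27ra (261 RPKM) overlapped Il21r (249 RPKM), and Il1r2 had the fifth level at 39.6 RPKM. In iHET CD25- PP Tregs Il27ra (169 RPKM) and Il21r (137 RPKM) led, Il7r, Il1r2, Il10ra and Il6st overlapped in turn between means of 49.6 and 31.4 RPKM, and Il1rl1 (6.26 RPKM) and Il23r (1.03 RPKM) were lowest. In iHET colonic Tregs Il21r led at 185 RPKM, and Il27ra (147 RPKM), Il10ra (116 RPKM), Il7r (79.1 RPKM), Il1r2 (52.2 RPKM) and Il1rl1 (49.9 RPKM) followed, each overlapping the next. Il6ra was last there at 4.35 RPKM and overlapped Il23r at 7.06 RPKM. The order in iKO Tregs had Il27ra first and Il21r second in both organs, at 205 and 139 RPKM in CD25- PP Tregs and at 173 and 145 RPKM in colonic Tregs, where their libraries overlapped.

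**Figure D1:**
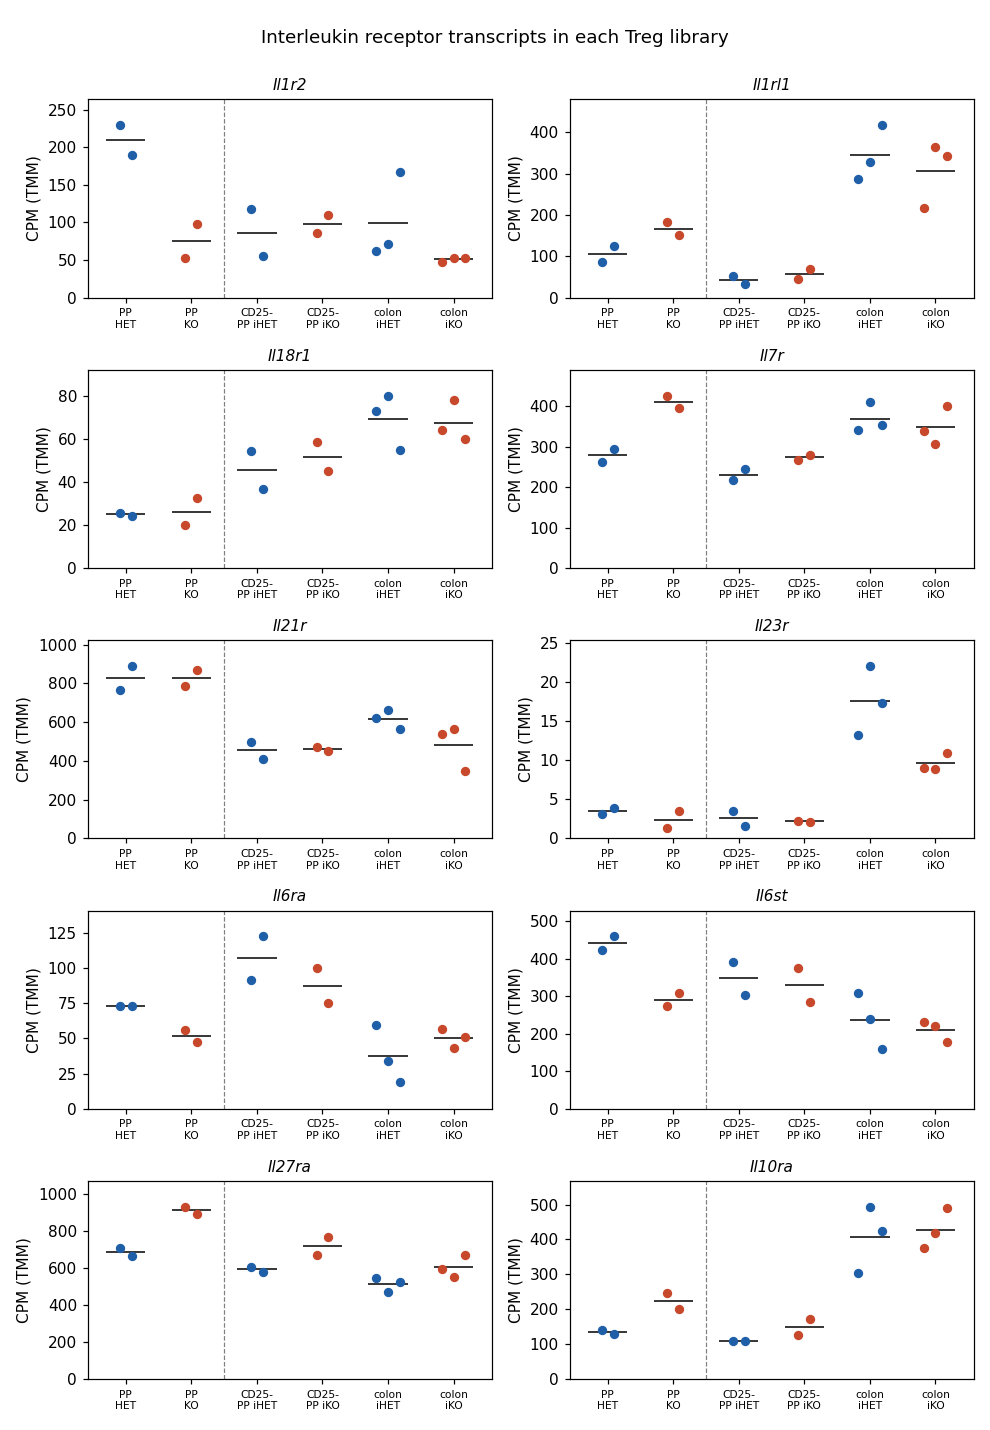
Normalized level of each receptor gene (y axis, CPM from 0) in every library of the 6 groups (x axis), with HET and iHET in blue, KO and iKO in red and the group mean as a line. The dashed line separates the 2 lines of mice, which were normalized apart, and Il1rl1, Il23r, Il10ra and Il7r have every colonic library above every CD25- PP library.

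To determine how constitutive loss of JunB altered these receptors, KO and HET PP Tregs were compared. The decoy receptor Il1r2 and the gp130 gene Il6st were lower in KO PP Tregs, while Il10ra, Il7r and Il27ra were higher. Thus 5 of the 10 genes were differentially expressed (DE) at a false discovery rate (FDR) of 0.05 in edgeR's quasi-likelihood test, where 3.35% of the 12224 genes tested were called, 0.99% as higher and 2.36% as lower. The median log2 fold change of the 10 genes was 0.04, against 0 over all genes tested. The libraries of the genotypes did not overlap for 7 of the 10 genes, as for 43.6% of all genes tested.

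Il1r2 had the largest change. HET libraries had 229 and 190.3 CPM and KO libraries 53.2 and 98.1 CPM, with means of 210 ± 27.6 and 75.6 ± 31.8 CPM (SD, n = 2). Both KO libraries were below both HET libraries. The log2 fold change was -1.47 (standard error, SE, 0.243, 95% confidence interval -2.03 to -0.91, edgeR adjusted p = 0.0187). The other chromosome 1 genes of the IL-1 family did not pass the test. Il1rl1 was at 86.3 and 124.5 CPM in HET and at 182 and 151 CPM in KO libraries, so that the groups did not overlap, with a log2 fold change of 0.66 (0.28 to 1.04) and an edgeR adjusted p of 0.0854. Il18r1 was at 25.4 and 24.3 CPM in HET and at 19.9 and 32.5 CPM in KO libraries, which overlapped, with an interval of the log2 fold change from -0.41 to 0.56.

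Among the chains that pair with the common gamma chain, Il7r, the IL-7 receptor of resting and memory lymphocytes, was at 263 and 296 CPM in HET and at 427 and 397 CPM in KO libraries. Both KO libraries were higher, with a log2 fold change of 0.56 (SE 0.0897, edgeR adjusted p = 0.0167). Il21r, the receptor of a cytokine made by follicular helper cells, was at 765 and 889.9 CPM in HET and at 787 and 867 CPM in KO libraries. The KO libraries lay between the HET libraries, and the interval of the log2 fold change was -0.24 to 0.24.

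Il6st was at 423 and 459.7 CPM in HET and at 273 and 307 CPM in KO libraries, a log2 fold change of -0.60 (SE 0.0917, edgeR adjusted p = 0.0147). Its IL-6 binding partner Il6ra was at 73.4 and 73.1 CPM in HET and at 56.2 and 47.5 CPM in KO libraries, also without overlap, but with an edgeR adjusted p of 0.0588 (log2 fold change -0.50, interval -0.76 to -0.24). Il27ra, the other partner of gp130, moved the opposite way. It was at 708 and 663 CPM in HET and at 930.0 and 891 CPM in KO libraries (log2 fold change 0.41, SE 0.0861, edgeR adjusted p = 0.0443). Il10ra, which binds IL-10, was at 139.9 and 128 CPM in HET and at 246 and 201 CPM in KO libraries, a log2 fold change of 0.73 (SE 0.107, edgeR adjusted p = 0.0132). Il23r was close to the filter, with 96 and 106 counts (3.09 and 3.85 CPM) in HET and 38 and 93 counts (1.36 and 3.44 CPM) in KO libraries. These overlapped, and the interval of its log2 fold change, -1.59 to 0.54, was the widest of the 10.

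The calls depended on single libraries. Without HET replicate 1 none of the 10 genes was called, when 54 genes in all were, without HET replicate 2 it was 2, without KO replicate 1 it was 3 and without KO replicate 2 it was 4. Il27ra was not called in any of these 4 fits, nor with upper-quartile normalization (edgeR adjusted p = 0.0565) or with a minimum of 10 counts per library. The exact test and DESeq2 both called 7 of the 10, the 5 above together with Il1rl1 and Il6ra.

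The rest of the pathway was followed through lists of partner chains, other receptors, ligands and signalling genes. None of 9 partner chains tested was called, and Il2rg (the common gamma chain) and Il10rb had log2 fold changes of 0.12 and 0.23. None of 11 JAK and STAT genes and none of 10 genes of MyD88 signalling was called. Jak1 and Stat3 had log2 fold changes of -0.07 each. Of 12 feedback inhibitors of cytokine signalling, 3 rose and none fell. They were Socs2 (log2 fold change 1.27, edgeR adjusted p = 0.00082), Cish (1.02, edgeR adjusted p = 0.00107) and Socs3 (0.53, edgeR adjusted p = 0.0162), the last a known inhibitor bound to gp130. Among 15 other interleukin receptors, Il2ra rose (0.73, edgeR adjusted p = 0.0199) and Il13ra1 fell (-1.27, edgeR adjusted p = 0.0441).

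Of 8 ligand genes tested, Il21 fell by 2.31 on the log2 scale (edgeR adjusted p = 0.00449), while the level of its receptor Il21r differed little. Il1b, a ligand of the decoy receptor Il1r2, fell by 2.51 (edgeR adjusted p = 0.0201), and Ebi3, a subunit of IL-27 and IL-35, rose (0.81, edgeR adjusted p = 0.0133). Genes of ST2+ colonic Tregs were also listed. Among 9 of them, Ccr8 (-0.56, edgeR adjusted p = 0.0239) and Rora (-0.82, edgeR adjusted p = 0.0398) fell and Lrrc32 rose (0.48, edgeR adjusted p = 0.0441). Of 10 genes of resting lymphoid cells 1 was called, Bcl2, which rose (0.52, edgeR adjusted p = 0.0173). Only 4 of these 10 were positive in log2 fold change, and the median of the list was -0.1. Foxp3 was the only one of 8 Treg identity genes called (0.51, edgeR adjusted p = 0.0167).

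Markers of other cells moved with genotype in PP Tregs. The summed level of 12 epithelial markers was 140 to 181 CPM in HET and 52.5 to 60.7 CPM in KO libraries, with 8 of 11 tested called lower, and that of 10 B cell markers was 215 to 249 against 118 to 183 CPM, with 1 of 10 called lower (Cr2). That of 12 neutrophil and mast cell markers was 16.9 to 18.7 against 2.54 to 3.4 CPM. Of these 12 markers, 5 were at 0 in HET and 8 in KO libraries, Mcpt1, Retnlg, S100a8 and Tpsb2 in both, and the mast cell gene Kit, the only one tested, was called lower. Myeloid markers summed to 112 to 203 against 114 to 171 CPM and overlapped. Markers of innate lymphoid cells summed to 55.9 to 59.7 against 43.3 to 44.1 CPM. Of 6 tested, 1 was called lower (Klrb1c), and 3 were positive in log2 fold change. Stromal and endothelial markers summed to 84.5 to 88.8 against 94.5 to 120 CPM, with none of 3 called. Theirs was the only one of the 6 lists of other cells with a higher sum in both KO libraries than in both HET libraries. The mix of Tregs also differed, as the study reports by flow cytometry that KO mice lost nearly all follicular regulatory T cells and many CD25- Tregs. The part of other cells, or of lost Treg subsets, in the differences of the 10 genes was not tested.

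To examine acute loss of JunB, CD25- PP Tregs of iKO and iHET mice were compared. None of the 10 genes was called, nor was any of the 17079 genes tested (0%), of which 618 had an unadjusted p under 0.05. Even Junb, the deleted gene, was not called, with a log2 fold change of -2.44 (edgeR adjusted p = 0.094). The lack of calls therefore does not show that the receptors were unchanged. DESeq2 called 35 and the exact test 45 genes but none of the 10. The median log2 fold change of the 10 genes was 0.18, against 0 over all genes. The libraries of the genotypes did not overlap for 3 of the 10 genes, no larger a share than the 32.1% of all genes tested. These 3 were Il7r, Il10ra and Il27ra. Each was higher in both iKO libraries, as in KO PP Tregs, and the share of all genes with that pattern was not counted.

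Il10ra was at 110.4 CPM in both iHET libraries against 127 and 173.5 CPM in iKO libraries, with a log2 fold change of 0.43 and an interval from 0.02 to 0.85. Il27ra was at 605 and 578 CPM in iHET and at 668 and 766.5 CPM in iKO libraries, with an interval from -0.05 to 0.59. Il7r was at 218 and 245 CPM in iHET and at 269 and 279.7 CPM in iKO libraries, with an interval from -0.07 to 0.55. For these 3 genes the edgeR adjusted p was 0.999, as for the other 7.

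Il1r2 was at 117 and 55.2 CPM in iHET and at 86.2 and 109.8 CPM in iKO libraries, which lay between the iHET libraries. Its interval was -0.64 to 1, against -2.03 to -0.91 in PP Tregs. These comparisons also differ in the CD25 gate and in acute against constitutive loss, and the difference between the lines was not tested. Il6st was at 392 and 304 CPM in iHET and at 375 and 283 CPM in iKO libraries, with an interval from -0.56 to 0.38. Il1rl1 (33.4 to 53.0 against 44.7 to 69.8 CPM), Il6ra (91.7 to 123 against 74.9 to 100.2 CPM), Il18r1 (36.8 to 54.4 against 44.8 to 58.6 CPM) and Il21r (409 to 499 against 449.9 to 473 CPM) overlapped between genotypes. Il23r had 46 to 104 counts in a library and also overlapped. None of the genes of the pathway lists was called here. Of the 6 lists of markers of other cells, the sums overlapped between genotypes for 5, epithelial markers at 171 to 471 against 201 to 206 CPM among them, and B cell markers summed to 105 to 106 against 110 to 137 CPM.

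**Figure D2:**
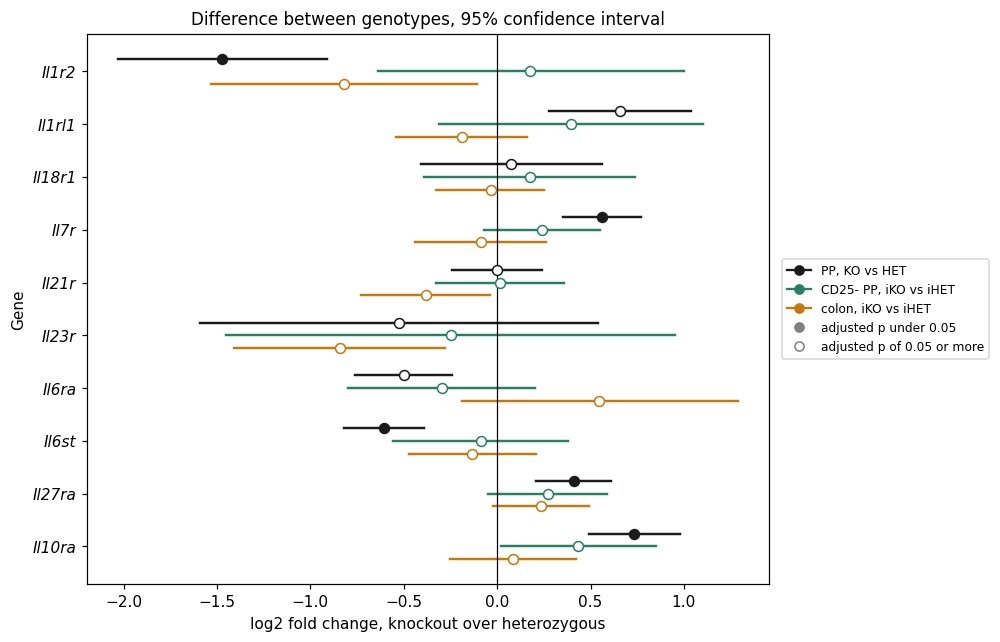
Log2 fold change of each receptor gene, knockout over heterozygous (x axis), in PP, CD25- PP and colonic Tregs, with points for the estimate, lines for its 95% confidence interval and filled points for an edgeR adjusted p under 0.05. Only in PP Tregs are points filled, for Il1r2, Il7r, Il6st, Il27ra and Il10ra, and the difference between the comparisons of PP and inducible mice was not tested.

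Colonic Tregs of iKO and iHET mice were compared with the replicate number as a term for cage. The labels do not tie animals to cages, and the number also goes with sex. None of the 10 genes was called. Of 16313 genes 1 was, Junb itself (0.00613%), while 632 had an unadjusted p under 0.05, and DESeq2 called 50 and the likelihood ratio test 25 genes but none of the 10. The median log2 fold change of the 10 genes was -0.11, against 0 over all genes. The libraries of the genotypes did not overlap for 4 of the 10 genes, as for 8.35% of all genes tested. Il23r, Il1r2 and Il21r were lower in all 3 iKO libraries, and Il27ra was higher.

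Il23r was at 13.3, 22.1 and 17.3 CPM in iHET and at 9.06, 8.91 and 10.9 CPM in iKO libraries. All 3 iKO libraries were lower, with a log2 fold change of -0.84 (interval -1.41 to -0.28, edgeR adjusted p = 0.947, unadjusted 0.0112). Il1r2 was at 61.6, 70.7 and 166.5 CPM in iHET and at 47.4, 53.2 and 52.5 CPM in iKO libraries. The third iHET library stood far above the others, and the log2 fold change of -0.82 (interval -1.53 to -0.11) was -0.39 without it. Il21r was at 621, 661 and 564 CPM in iHET and at 539, 563 and 348 CPM in iKO libraries, where the highest iKO library came within 1 CPM of the lowest iHET library, with an interval of -0.73 to -0.04.

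Il27ra was at 544, 469 and 523 CPM in iHET and at 596, 552 and 670.0 CPM in iKO libraries, an interval of -0.02 to 0.49 around a log2 fold change of 0.24. Il27ra was thus higher in every knockout library than in every control library of the same organ and line in all 3 comparisons, and called in 1. Genotypes did not overlap, in either direction, for 43.6% of all genes in PP, 32.1% in CD25- PP and 8.35% in colonic Tregs. The share of genes with the same pattern in all 3 was not counted. The 3 members called as changed in PP Tregs besides Il27ra and Il1r2 overlapped in the colon. Il10ra was at 305 to 494 CPM in iHET and at 374.5 to 490.3 CPM in iKO, Il7r at 341 to 410.4 against 306 to 400.3 CPM, and Il6st at 159.8 to 308 against 179 to 231 CPM. Their intervals were -0.25 to 0.42, -0.44 to 0.26 and -0.47 to 0.21. In PP Tregs they were 0.49 to 0.98, 0.35 to 0.77 and -0.82 to -0.39, of which only that of Il6st overlapped its colonic interval. These comparisons also differ in organ and in acute against constitutive loss, and the difference between the 2 lines was not tested. Il1rl1 (286 to 417 against 216 to 363 CPM) and Il18r1 (54.9 to 80.1 against 59.9 to 78.2 CPM) overlapped as well. Il6ra ranged from 19.1 to 59.4 CPM in iHET and from 43.1 to 56.8 CPM in iKO libraries, and its iHET spread exceeded the difference of the means.

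No gene of the pathway lists was called in the colon. With the lowest unadjusted p of the partner chains, Il12rb1, the chain that pairs with Il23r, had a log2 fold change of -0.59 (edgeR adjusted p = 0.947), and Il12rb2 one of -1.56 (edgeR adjusted p = 0.947). Both were named after their values were seen. Stromal and endothelial markers summed to 201 to 567 CPM in iHET and to 197 to 1130 CPM in iKO libraries, with 8 of 8 tested positive in log2 fold change and none called, and epithelial markers to 257 to 1010 against 175 to 1820 CPM. Il1r2 was highest in the iHET library with the highest sum of myeloid markers of the colonic libraries, 332 CPM against 114 to 262 CPM in the others. Neutrophil and mast cell markers summed to 163 CPM there, within the 87.8 to 232 CPM of the others. The same library also had the highest sums of genes of ST2+ colonic Tregs (7770 against 5410 to 6670 CPM) and of Treg identity (8820 against 7180 to 8180 CPM). The part of other cells in the level of Il1r2 was not tested.

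To examine organ differences, colonic and CD25- PP Tregs of the inducible line were compared in 1 fit of its 10 libraries. The colonic Tregs had more transcript of ST2, the IL-23 receptor and the IL-10 receptor in both genotypes. In iHET mice 5 of the 10 genes were called, where 6.45% of 18626 genes were, with 4.22% higher and 2.23% lower in the colon. Il1rl1, Il23r, Il10ra and Il7r were higher in the colon and Il6ra was lower. In iKO mice 3 of the 10 were called, all higher (Il1rl1, Il10ra and Il23r), where 4.07% of genes were, 2.48% higher and 1.59% lower. The median log2 fold change of the 10 genes was 0.52 in iHET and 0.21 in iKO mice, against -0.01 and 0.01 over all genes. The libraries of the organs did not overlap for 8 of the 10 genes in both iHET and iKO mice, as for 38.7% and 43.9% of all genes tested.

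Il1rl1 differed most. In iHET mice it was at 53.0 and 33.4 CPM in CD25- PP and at 286, 328 and 417 CPM in colonic libraries, and in iKO mice at 44.7 and 69.8 CPM and at 216, 363 and 342 CPM. Every colonic library was above every CD25- PP library. The log2 fold change was 2.99 in iHET (SE 0.330, edgeR adjusted p = 0.00171) and 2.42 in iKO mice (SE 0.320, edgeR adjusted p = 0.00523).

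Il23r was at 3.56 and 1.59 CPM in iHET CD25- PP libraries against 13.3, 22.1 and 17.3 CPM in colonic libraries, a log2 fold change of 2.75 (SE 0.375, edgeR adjusted p = 0.00415). In iKO mice 2.27 and 2.07 CPM stood against 9.06, 8.91 and 10.9 CPM, a log2 fold change of 2.13 (SE 0.367, edgeR adjusted p = 0.0151). The colonic counts were 271 to 740 reads. Il10ra was at 110.4 CPM in both iHET CD25- PP libraries and at 305, 494 and 423 CPM in the colon, a log2 fold change of 1.88 (SE 0.228, edgeR adjusted p = 0.00247). In iKO mice it was at 127 and 173.5 CPM against 374.5, 419.9 and 490.3 CPM, a log2 fold change of 1.51 (SE 0.224, edgeR adjusted p = 0.00868). Their organ ranges did not overlap in either genotype.

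Il7r was at 218 and 245 CPM in iHET CD25- PP libraries and at 341 to 410.4 CPM in the colon (log2 fold change 0.67, SE 0.146, edgeR adjusted p = 0.0268). In iKO mice 269 and 279.7 CPM stood against 306 to 400.3 CPM, still without overlap (log2 fold change 0.35, edgeR adjusted p = 0.205). Il6ra was lower in the colon, at 91.7 and 123 CPM in iHET CD25- PP libraries against 59.4, 34.2 and 19.1 CPM (log2 fold change -1.51, SE 0.370, edgeR adjusted p = 0.0406). In iKO mice it was at 100.2 and 74.9 CPM against 56.8, 43.1 and 50.7 CPM (log2 fold change -0.80, edgeR adjusted p = 0.252). With the replicate number as a block, neither Il7r nor Il6ra was called in iHET mice.

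The remaining 5 genes were called in neither genotype. Il18r1 had a log2 fold change of 0.61 in iHET and 0.38 in iKO mice. Its lowest colonic library was just above its highest CD25- PP library, at 54.9 against 54.4 CPM in iHET and 59.9 against 58.6 CPM in iKO mice. The log2 fold changes in iHET and iKO mice were -0.56 and -0.65 for Il6st and -0.21 and -0.24 for Il27ra. They were 0.44 and 0.07 for Il21r and 0.21 and -0.94 for Il1r2. The edgeR adjusted p-values of these 5 genes ranged upward from 0.152 in iHET and from 0.178 in iKO mice.

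Whether the organ difference depended on genotype was tested as an interaction. None of the 10 genes passed, nor did any of the 18626 genes (0%), of which 622 had an unadjusted p under 0.05, while DESeq2 and the likelihood ratio test each called 2 genes, none of them among the 10. The smallest unadjusted p of the 10 was that of Il1r2, 0.0809, with an interaction of -1.15 (interval -2.47 to 0.17). The calls of Il7r and Il6ra in iHET mice alone are therefore not shown to differ from iKO mice, with interactions of -0.33 (interval -0.78 to 0.12) and 0.71 (interval -0.47 to 1.89).

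**Figure D3:**
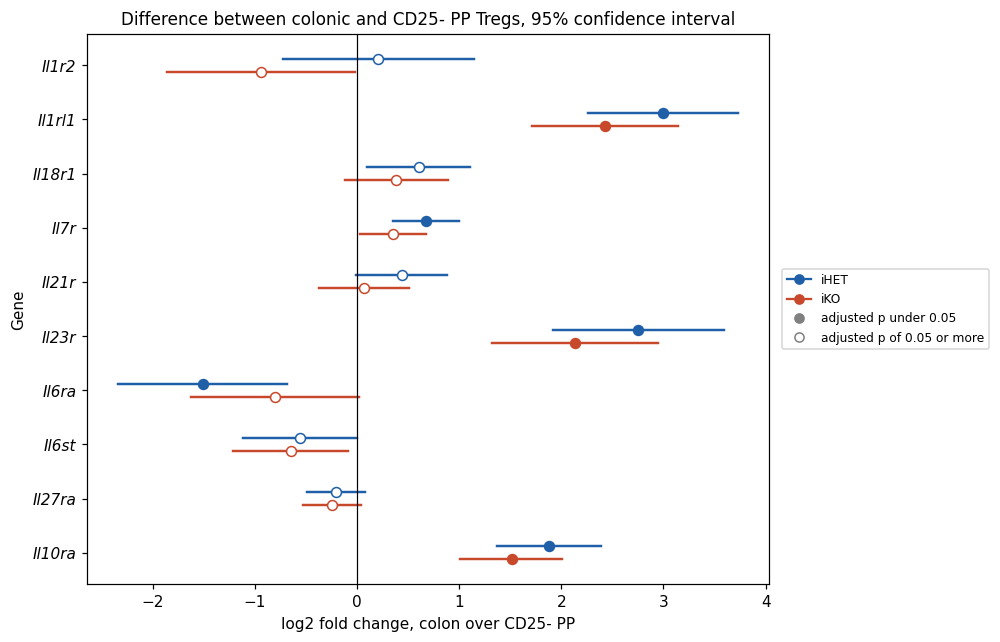
Log2 fold change of each receptor gene, colonic over CD25- PP Tregs (x axis), in iHET (blue) and iKO mice (red), with lines for the 95% confidence interval and filled points for an edgeR adjusted p under 0.05. Il1rl1, Il23r and Il10ra are filled in both genotypes, and Il7r and Il6ra in iHET mice.

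Calls of single genes depended on the libraries. In iHET mice 3 of the 10 genes were called without coLP replicate 2 or without either CD25- PP replicate. In iKO mice no gene of the 10 was called without CD25- PP replicate 1, when 74 genes in all were, and 2 were called without CD25- PP replicate 2 or coLP replicate 2. Il1rl1, Il23r and Il10ra were called in every such fit in iHET mice.

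The partners and signalling genes of these receptors also differed between organs. Of 10 partner chains 2 were higher in the iHET colon and none lower. They were Il12rb1, the partner of Il23r (log2 fold change 2.11, edgeR adjusted p = 0.000587), and Il18rap, that of Il18r1 (1.42, edgeR adjusted p = 0.0173), and in iKO mice only Il12rb1 was called (1.34, edgeR adjusted p = 0.00504). Of 17 other interleukin receptors 6 were higher in the iHET colon, led by Il2ra (1.71, edgeR adjusted p = 0.000747), Il2rb (0.70, edgeR adjusted p = 0.00906) and Il4ra (1.32, edgeR adjusted p = 0.0104), and in iKO mice 4 were higher and 1, Il1rl2, was lower. Il2ra encodes CD25, on which the PP Tregs of this line were gated. Of 14 ligand genes 3 were higher in the iHET colon, which were Il10 (1.18, edgeR adjusted p = 0.00634), Il1rn, the IL-1 receptor antagonist (2.35, edgeR adjusted p = 0.0104), and Il1b, an IL-1 made mainly by myeloid cells, at 0 to 0.0685 CPM in CD25- PP and at 2.15 to 68.4 CPM in colonic libraries (edgeR adjusted p = 0.0274). In iKO mice only Il10 was called (0.80, edgeR adjusted p = 0.0389).

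Stat3, which acts downstream of the IL-6, IL-10, IL-21 and IL-23 receptors, was higher in the iHET colon (0.82, edgeR adjusted p = 0.0109), as was Stat5a (0.54, edgeR adjusted p = 0.0389), and the other 9 JAK and STAT genes were not called. In iKO mice none of the 11 was. Of 10 genes of MyD88 signalling, Irak2 and Traf6 were higher in both genotypes, with log2 fold changes of 0.74 and 0.59 in iHET mice (edgeR adjusted p = 0.00864 and 0.0222). Of 12 feedback inhibitors, Cish (1.20, edgeR adjusted p = 0.000596) and Socs2 (2.36, edgeR adjusted p = 0.00256) were higher in the iHET colon and Ptpn6 (-0.98, edgeR adjusted p = 0.00813) was lower, and Cish and Socs2 were higher in iKO mice too.

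Genes known from ST2+ colonic Tregs were called higher for 6 of 10 in the iHET colon, led by Rora (2.38, edgeR adjusted p = 0.000864), Klrg1 (3.91, edgeR adjusted p = 0.00216) and Tnfrsf9 (1.96, edgeR adjusted p = 0.00348). In iKO mice 4 were higher and 1, Ikzf2, was lower. Of 10 genes of resting lymphoid cells, Lef1 and Tcf7 were lower in the iHET colon (-1.32 and -1.66, edgeR adjusted p = 0.011 and 0.015), and none was called in iKO mice. Of 8 Treg identity genes, Ctla4 and Foxp3 were higher in the iHET colon (0.77 and 0.99, edgeR adjusted p = 0.0309 and 0.0324) and none was called in iKO mice.

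Some lists of markers of other cells also had higher sums in the colon. Neutrophil and mast cell markers summed to 25.7 to 33.3 CPM in CD25- PP and to 87.8 to 219 CPM in colonic libraries of iHET mice, and to 23.4 to 33.4 against 104 to 232 CPM in iKO mice, with 1 of 5 called higher in each, Kit (3.00 and 3.02). Of these 5 markers only 2 were positive in log2 fold change in iHET and 3 in iKO mice. Markers of innate lymphoid cells, some of which also express ST2, summed to 67.6 to 68.1 against 97.7 to 134 CPM in iHET and to 52.1 to 70.8 against 101 to 110 CPM in iKO mice, with 3 and 2 of 8 called higher. This list shares Il1r1 and Il9r with the other interleukin receptors above. Il1r1 was called higher in iKO mice (1.70, edgeR adjusted p = 0.0495) and so counts in both lists. Myeloid markers summed to 63.2 to 109 against 116 to 332 CPM in iHET mice and to 81.3 to 87.1 against 114 to 262 CPM in iKO mice, with 3 and 2 of 10 called higher. Stromal markers summed to 136 to 170 against 201 to 567 CPM in iHET mice and to 110 to 144 against 197 to 1130 CPM in iKO mice, with 0 and 3 of 9 called higher. Epithelial markers summed to 171 to 471 against 257 to 1010 CPM and to 201 to 206 against 175 to 1820 CPM, and B cell markers to 105 to 106 against 66.1 to 133 CPM and to 110 to 137 against 71.2 to 111 CPM, both with overlap. Of 12 epithelial markers 1 was called lower in the iHET colon and none in iKO mice. Of 10 B cell markers 1 was called lower in the colon in each genotype, and 3 in iHET and 2 in iKO mice were positive in log2 fold change. The part of these cells in the organ differences of Il1rl1, Il23r, Il10ra and Il6ra was not tested.

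Il1rl1, Il23r and Il10ra had the widest ranges of group means over the 4 groups of the inducible line, at 3.01, 2.97 and 1.95 on the log2 CPM scale, while Il21r had the narrowest at 0.44. Among 9467 genes with a mean of at least 10 CPM, the gene whose centred log2 CPM lay closest to that of Il1rl1 over the 10 libraries was Pcyt1a (root mean square difference 0.235), followed by Fam110a (0.266) and the feedback inhibitor Socs2 (0.27). For Il10ra the closest were Slc5a8 (0.158), Gadd45g (0.184) and Sept8 (0.199). For Il23r they were Tpbgl (0.212), Sdc4 (0.308) and Pqlc1 (0.32). The 10 libraries share 2 organs and 1 sequencing run type, and these are descriptions of likeness only.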

How the data were processed

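RNA-seq was performed on sorted Tregs in 14 libraries. The deposited counts are whole numbers of reads per gene without normalization, which the authors made by trimming with Trim Galore, aligning with STAR to GRCm38, dropping multi-mapped reads, and counting with featureCounts at default settings, which ignore strand. Paired-end reads of the inducible line were treated as single-end. Annotation was GENCODE M21, where the study names M22.

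Here counts were tested in R 4.3.3 with edgeR 4.0.16 (quasi-likelihood test, TMM, a minimum of 1 CPM in the number of libraries of the smallest group, prior count of 1, Benjamini-Hochberg FDR of 0.05). Genotypes were compared in the libraries of each comparison, in the colon with the replicate number as a term for cage, and organs as contrasts of 4 groups. Levels in CPM and RPKM are scaled over all libraries of a line, so that fold changes fitted on fewer libraries can differ slightly from ratios of levels. A floor of 3 counts is 0.0845 to 0.114 CPM, and covers counting error only. The numbers did not pair the samples by the rule used (correlations of deviations of same-numbered libraries were 0.098 in PP, 0.101 in CD25- PP and 0.062, 0.293 and -0.089 in colonic Tregs), and the labels do not tie animals to cages. No replicates agreed within sampling noise.

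Alternatives were the tests of the study (exact or likelihood ratio), DESeq2 1.42.0, its size factors, upper-quartile normalization, no filter, a prior count of 0.125, a minimum of 10 counts per library, the replicate block added or dropped, 1 fit of the 10 libraries and leaving out each replicate. Data were simulated without a cage effect. In each layout 200 genes were changed, 2-fold or 4-fold, and only genes with a mean of at least 10 CPM. Il23r lay below that level in PP and CD25- PP Tregs. On these data the test recovered 93% of 2-fold changes in the layout of PP Tregs (12224 genes), 63% in that of CD25- PP Tregs (17079 genes), 37% in that of colonic Tregs (16313 genes) and 41% in that of the organs (18626 genes). Of its calls 7.21%, 14.21%, 7.14% and 2.9%, in the same order, were false, so that the rate in the genotype layouts was above the 5% aimed at. Where fewer genes change, the FDR cut is stricter, so that recovery in the measured data can be lower. All 10 receptor genes are named, and genes of the lists where called, at most 4 per list and comparison, lowest p first, or the most abundant where none was called. Members and lists were chosen with earlier results of these data known. The full sort gate of the Foxp3-YFP-cre line, and 1 list of genes, are not reported here. Figures used Python 3.11.15 and matplotlib 3.10.9.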

Additional observations from a re-analysis of the deposited data

How the results depend on the processing

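Apart from leaving out libraries, the number of the 10 receptor genes called moved beyond 1.5 times in 3 cases: the replicate block lowered it from 5 to 3 for the organs in iHET mice, and the filter left out raised it from 3 to 6 in iKO mice and from 0 to 1 for the interaction (Il1r2, edgeR adjusted p = 0.00588). It was 0 under every setting between genotypes in CD25- PP and in colonic Tregs, the latter also with no replicate block. In PP Tregs it was 4 to 7, and 7 with the replicate block, with 1015 genes called in all. In leave-one-out fits it was 0 to 4 in PP Tregs, 3 to 5 for the organs in iHET and 0 to 3 in iKO mice. Where a library is left out of a pair, the lone library is assumed to vary like the others, and in the colon, where the number is a term of the fit, the library of the other genotype with that number then adds nothing to the comparison.

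Directions reversed only for log2 fold changes that had not passed the test. Il21r became 0.006 without the filter and 0.002 with the replicate block in PP Tregs, and -0.001 with upper-quartile normalization in CD25- PP Tregs. Il1r2 became -0.141 with the replicate block and -0.384 in replicates 1 and 2 only between organs in iHET mice. Leaving out single libraries gave ranges across 0 in PP Tregs for Il18r1 (-0.325 to 0.39) and Il21r (-0.104 to 0.115). In CD25- PP Tregs they were -0.081 to 0.497 for Il18r1, -0.271 to 0.829 for Il1r2, -0.124 to 0.176 for Il21r, -0.717 to 0.449 for Il23r and -0.303 to 0.121 for Il6st. In colonic Tregs they were -0.016 to 0.262 for Il10ra, -0.109 to 0.042 for Il18r1, -0.273 to 0.012 for Il6st and -0.214 to 0.092 for Il7r. Between organs they were -0.384 to 0.871 for Il1r2 in iHET and -0.072 to 0.257 for Il21r in iKO mice, and for the interaction -0.546 to 0.03 for Il18r1, -0.137 to 0.056 for Il27ra and -0.319 to 0.143 for Il6st.

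The cause of these moves was not tested. Genes called in all ranged over the settings that keep every library from 313 to 1305 in PP (409 as reported), 0 to 232 in CD25- PP (0), 1 to 50 in colonic Tregs (1), 900 to 2848 (1201) and 430 to 2348 (758) for the organs and 0 to 282 for the interaction (0). Without single libraries they ranged from 54 to 313, 0 to 128, 0 to 8, 137 to 1700, and 74 to 495, and stayed at 0 for the interaction. Il23r had 38 to 106 counts per PP library, the lowest of the 10 genes, and a CV of 61.3% in KO libraries.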
